A study of Mus musculus with 8 samples.

Results

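Ezh2 and G9a occupancy was examined at 5 imprinted windows of the mouse genome, which carry 9 genes: H19, Igf2, Kcnq1ot1, Cdkn1c, Snrpn, Igf2r, Airn, Dlk1 and Meg3. The windows were fixed by position on the mm9 build, and every called ChIP-seq peak that touched a window was taken. This gave 135 peaks out of 174428 in the 5 peak lists together: 11, 25 and 19 Ezh2 peaks in wild-type library 0, wild-type library 1 and the knockout, and 35 and 45 G9a peaks in the wild type and the rescue. The windows were chr7:149.74-149.87 Mb for H19 and Igf2 (130 kb), chr7:150.28-150.68 Mb for Kcnq1ot1 and Cdkn1c (400 kb), chr7:67.09-67.2 Mb for Snrpn (110 kb), chr17:12.86-13.02 Mb for Igf2r and Airn (160 kb), and chr12:110.67-110.83 Mb for Dlk1 and Meg3 (160 kb). A G9a peak of the wild-type list ran 31 bp past the end of the Kcnq1ot1 and Cdkn1c window; every other peak lay inside its window.

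All libraries came from TT2 embryonic stem cells, whose strain label names a C57BL/6 female and a CBA male, grown in serum with LIF. Ezh2 was profiled in 2 unmodified (wild-type) TT2 libraries, numbered 0 and 1, and in 1 library, numbered 0, of TT2 cells without G9a and GLP (G9a-/- and GLP-/-). For G9a there was 1 list from wild-type TT2 and 1 from the double-knockout cells given back wild-type G9a; by their label these rescue cells still lacked GLP. The labels of the knockout Ezh2 library conflict: its title and description name the knockout, and its source name gives only TT2, so every knockout value rests on the title. How many clones the knockout line represents and what drives the rescue G9a are not given in the sources used here, and the lists carry no measure of either protein that would check the genotypes. The whole lists held 5425, 11766 and 6198 Ezh2 peaks and 67318 and 83721 G9a peaks, with lowest scores of 43.02, 30, 43.03, 20 and 20 in that order. Read depth is unknown, and the lists do not separate the parental alleles.

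Imprinted genes are transcribed mainly from the chromosome of one parent, and DNA methylation of a control region, laid down in the germline, marks which. Ezh2 is the enzyme of Polycomb repressive complex 2 (PRC2), which places methyl groups on lysine 27 of histone H3. Lysine 9 of that histone is the main substrate of G9a, which acts as a dimer with GLP. In placenta both activities have been linked to silencing in cis by the long noncoding RNAs Kcnq1ot1 and Airn, which are transcribed from the paternal chromosome. H19 and Meg3 are maternally transcribed noncoding RNAs. Igf2 is a fetal growth factor, Igf2r the receptor that removes it, Cdkn1c a cyclin-dependent kinase inhibitor, Dlk1 a Notch-like membrane protein and Snrpn a spliceosomal protein.

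Promoter sequence was at hand for 7 of the 9 genes (14 RefSeq entries of the GRCm38.p6 build). Because the peaks are on mm9, these sequences could not be placed among them, and no peak below is tied to a promoter. In the 250 bases before the start, the median of 32851 RefSeq entries was 6 CpG dinucleotides. The Igf2r promoter held 27, more than 91.4% of all entries. The most CpG-rich of the 4 Igf2 entries held 22, Dlk1 held 8, Kcnq1ot1 5 and Airn 2, and the Snrpn entries held 2 to 4. The hexamer TGCCGC, which the imprint-protecting zinc-finger protein ZFP57 recognises, was found on either strand in 8.68% of all entries and in 1 of the 14 entries of these genes, the first of Meg3 (10 CpG). Promoters of Igf2, Dlk1 and Igf2r are shown because their windows differed in Ezh2 peaks while all 3 sequences shown were above the median in CpG. For Igf2 this is the most CpG-rich entry, and the other Igf2 entries held 1, 10 and 6. The sequences are read 5′ to 3′ along the gene (minus strand for Igf2 and Igf2r, plus for Dlk1), with CpG in capitals.
Igf2: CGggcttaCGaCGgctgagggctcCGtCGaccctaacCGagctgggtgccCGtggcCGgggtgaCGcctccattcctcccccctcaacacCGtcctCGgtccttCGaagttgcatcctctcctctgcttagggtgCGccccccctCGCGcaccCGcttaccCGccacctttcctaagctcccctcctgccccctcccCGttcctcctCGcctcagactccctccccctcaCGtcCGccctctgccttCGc
Dlk1: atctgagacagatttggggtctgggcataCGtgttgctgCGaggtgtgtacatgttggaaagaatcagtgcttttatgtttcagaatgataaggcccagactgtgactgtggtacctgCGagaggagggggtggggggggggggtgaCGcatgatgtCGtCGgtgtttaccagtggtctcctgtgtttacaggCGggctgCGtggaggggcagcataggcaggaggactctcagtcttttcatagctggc
Igf2r: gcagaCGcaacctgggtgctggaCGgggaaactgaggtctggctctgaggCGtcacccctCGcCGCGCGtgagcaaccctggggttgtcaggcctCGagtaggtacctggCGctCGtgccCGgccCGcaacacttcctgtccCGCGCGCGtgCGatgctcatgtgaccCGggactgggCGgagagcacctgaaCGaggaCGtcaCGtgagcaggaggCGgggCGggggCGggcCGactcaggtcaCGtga

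Ezh2 peaks were dense in these windows in every Ezh2 library. Over the 960 kb of the 5 windows the density was 11.5 peaks per Mb in wild-type library 0, 26.0 in wild-type library 1 and 19.8 in the knockout. In the flanking 1 Mb on each side (8.41 Mb in all, without the windows themselves) it was 1.78, 4.76 and 3.69 per Mb. The ratios of window to flank density were thus 6.42 (95% interval 2.67 to 15.0), 5.48 (3.18 to 9.25) and 5.37 (2.87 to 9.81), and these 3 intervals overlap widely. Over the whole genome the lists averaged 2.04, 4.43 and 2.33 peaks per Mb, so the knockout flanks were denser than their own list while the wild-type flanks lay near theirs. Ezh2 peaks covered 1.11%, 3.69% and 1.24% of the windows, against 0.127%, 0.484% and 0.163% of the flanks. The intervals are exact binomial ones on the share of peaks inside the windows; they cover counting of peaks only and are too narrow where neighbouring peaks belong together. Without the H19 and Igf2 window the ratios fell to 4.74 in library 0, 4.48 in library 1 and 3.79 in the knockout. Without the Dlk1 and Meg3 window they were 18.0, 7.66 and 9.16 in that order. Against the rest of the same chromosomes the knockout ratio was 9.40.

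**Figure D1:**
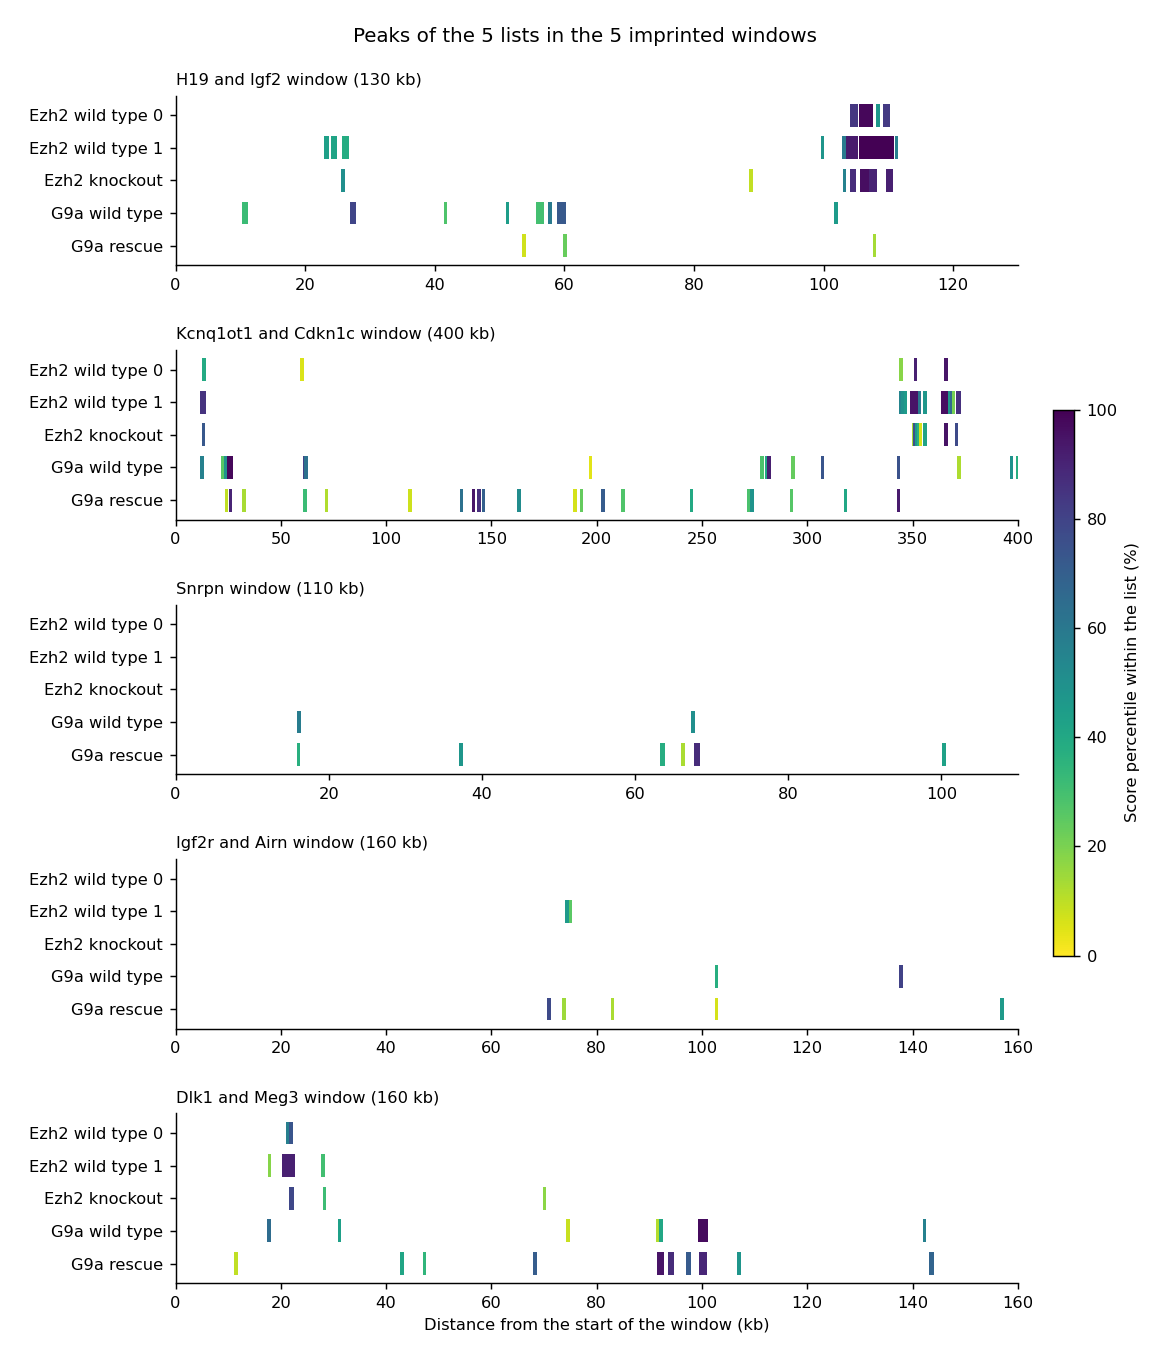
Called peaks of each list along the 5 windows, in kb from the window's start; bars are peaks, drawn at least 0.4% of the panel wide, and colour gives the score percentile within the list. Ezh2 peaks of all 3 lists stack up in the H19 and Igf2, Kcnq1ot1 and Cdkn1c, and Dlk1 and Meg3 windows, and the Snrpn window has none.

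The windows were unlike each other. Ezh2 density in the H19 and Igf2 window was 30.8, 61.5 and 53.8 peaks per Mb in library 0, library 1 and the knockout, against 1.88, 9.38 and 5.0 in its flanks. In the Kcnq1ot1 and Cdkn1c window it was 12.5, 30.0 and 22.5 per Mb, against 1.07, 8.56 and 3.74. In these windows the interval of the ratio stayed above 1 in all 3 libraries, with lowest bounds of 2.41 and 1.51. Both windows lie on chromosome 7 less than 1 Mb apart, so their flanks overlap and their ratios share flank peaks. The Dlk1 and Meg3 window had 12.5, 18.8 and 18.8 peaks per Mb against 5.5, 8.5 and 8.5 in its flanks, with ratios of 2.21 to 2.27 whose intervals included 1. The Igf2r and Airn window had 2 Ezh2 peaks, both in library 1, or 12.5 per Mb against 1.50 in its flanks. That ratio of 8.33 rested on these 2 peaks, and its interval (0.696 to 72.7) included 1. The Snrpn window had no Ezh2 peak in any list, and its flanks had none either. At the genome-wide densities of 2.04 to 4.43 per Mb, a window of 110 kb would often hold none.

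**Figure D2:**
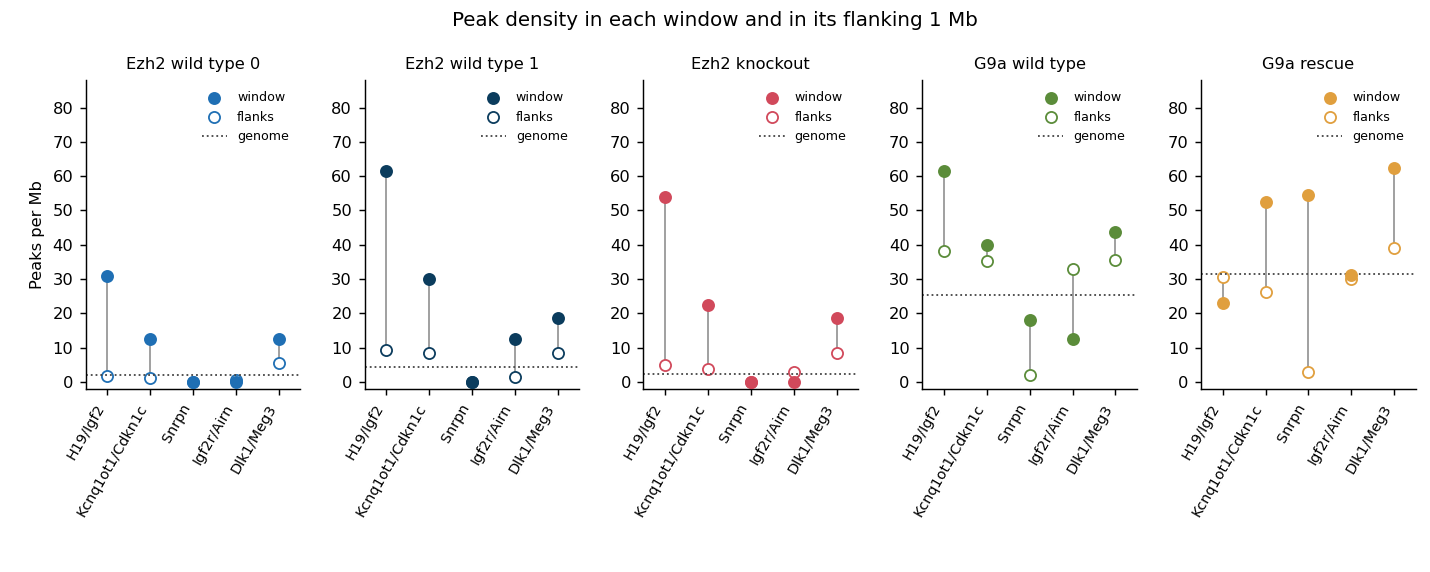
Peaks per Mb in each window (filled) and in its flanks (open) for each list, 1 library per panel, with the genome-wide density of the list as a dotted line. The Ezh2 lists stand highest in the H19 and Igf2 window (30.8, 61.5 and 53.8 per Mb), and G9a stands furthest above its flanks, as a ratio, at Snrpn (9.09 and 18.2). The Snrpn flanks are nearly empty of G9a peaks (2.00 and 3.00 per Mb), and the wild-type window (18.2 per Mb) lies below the genome line (25.4).

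In the H19 and Igf2 window the Ezh2 signal was concentrated on the side where Igf2 lies in gene order (H19 comes before Igf2 along chromosome 7 in the GRCm38.p6 gene table). The table places Igf2os and Ins2 beyond Igf2. The main region, chr7:149845522-149850944, began 106 kb into the window. It was a single peak of 5423 bp with a score of 3100 in library 1, a value that 322 peaks of that list share. Library 0 had 3 peaks there, the highest at 1380.65 (percentile 98.2 of its list), and the knockout had 3, the highest at 466.43 (percentile 96.4). Scores are the authors' values, 10 times the negative log10 of the peak p by the definition of the peak caller, and rank peaks only within a list. The region beside it, chr7:149843482-149845273, was also called in all 3 lists, with scores of 359.38, 1293.53 and 194.98 in library 0, library 1 and the knockout. Grouping Ezh2 regions up to 10 kb apart into blocks, the main block ran from 149839607 to 149851481 (11875 bp), and peaks covered 40.8% of it in library 0, 74.4% in library 1 and 42.6% in the knockout. The other regions of this block were weak. The region chr7:149842810-149843421 had scores of 80.5 in library 1 and 64.5 in the knockout, and chr7:149839607-149840104 (54.98) and chr7:149850976-149851481 (75.01) were called in library 1 alone.

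On the H19 side Ezh2 was weaker and not reproduced between the wild-type libraries. Library 1 had 3 peaks between 149762913 and 149766845, with scores of 50.13, 47.52 and 45.11, all under the median of its list (58.5). Library 0 had none there. The knockout had 1 peak, chr7:149765718-149765995, with a score of 59.33 (percentile 50.7), which overlapped the last of the library 1 peaks. The only other Ezh2 peak between these peaks and the Igf2-side block was a knockout peak at chr7:149828704-149828974 (44.39, percentile 9.36).

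The Kcnq1ot1 and Cdkn1c window carried Ezh2 at its Cdkn1c end (Kcnq1ot1 comes before Cdkn1c in gene order). A block from 150624170 to 150653031 (28862 bp) held 3 peaks of library 0, 11 of library 1 and 8 of the knockout, which covered 14.1%, 55.5% and 15.1% of it. The strongest region, chr7:150643709-150647112, had scores of 751.56 in library 0 (percentile 94.2), 2451.82 in library 1 (96.3) and 393.43 in the knockout (95). The next, chr7:150628933-150633545, had 583.69 in library 0 (91.4) and 1598.65 in library 1 (94.6), while its highest knockout score was 109.48 (75.2). It thus ranked lower in the knockout list than in either wild-type list, although 4 knockout peaks still covered 1747 bp of it, against 1658 bp in library 0. At the end of the block, chr7:150650570-150653031 had a score of 502.75 in library 1 (percentile 86.3) and 119.17 in the knockout (77.6), and no peak in library 0. The region chr7:150635508-150636295 was likewise called in library 1 (54.34) and the knockout (53.89).

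The remaining regions of that block were each called in 1 list, except chr7:150624170-150624794, which is described with the knockout comparison. Those of library 1 were chr7:150624962-150625955 (score 57.8), chr7:150626040-150627105 (51.91), chr7:150647313-150647805 (54.19), chr7:150647920-150648914 (111.05) and chr7:150649100-150649673 (34.92). The knockout alone had chr7:150633668-150633943 (43.79). By percentile these ran from 20.8 to 65.2 in library 1, and the knockout peak was at 6.18.

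At the other end of that window lay a region of very unequal width, chr7:150291706-150294606. It was 2901 bp in library 1 (score 452.52), but peaks covered 412 bp of it in library 0 (66.46) and, in the knockout, 445 bp (99.42). Between these ends 1 Ezh2 peak was called in all 3 lists together, chr7:150339895-150340159 of library 0, with a score of 45.01 (percentile 5.49).

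In the Dlk1 and Meg3 window, Ezh2 was called on the Dlk1 side (Dlk1 comes before Meg3). The region chr12:110690290-110692624 had 2 peaks in library 0 (106.8 and 196.93, the higher at percentile 73.7), 1 in library 1 (921.48, percentile 91.4) and 1 in the knockout (123.37, percentile 78.4). A weaker region nearby, chr12:110697577-110698487, had a score of 39.05 in library 1 and 49.7 in the knockout, and no peak in library 0. The remaining Ezh2 peaks were a library 1 peak of score 34.25, chr12:110687707-110688114, and a knockout peak of score 46.15, chr12:110739942-110740198, each called in its list alone. From 110740198 to the end of the window, the side of Meg3, no Ezh2 peak was called.

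The Igf2r, Airn and Snrpn windows had no Ezh2 peak that both wild-type libraries shared. The library 1 peaks in the Igf2r and Airn window, chr17:12934050-12934707 and chr17:12934772-12935369, had scores of 52.69 and 36.77 (percentiles 46.0 and 25.4). No Ezh2 peak of any list lay within 1 Mb of the Snrpn window either; the G9a peak of that window nearest to an Ezh2 region was 1191290 bp away from it. G9a peaks were sparse around Snrpn as well (below).

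The wild-type libraries were then set against each other and against the knockout, peak by peak, an overlap of at least 1 bp counting as found. Of the 11 library 0 peaks in the windows, 10 were found in library 1; over the genome 91.3% were. Of the 25 library 1 peaks, 7 were found in library 0, against 22.5% over the genome. The knockout list held 8 of the 11 library 0 peaks (background 51.1%) and 12 of the 25 library 1 peaks (48.0%; exact binomial 95% interval 27.8 to 68.7), against 19% over the genome. Of the 19 knockout peaks, 16 were found in library 1 (84.2%; background 71.0%). For the share of library 1 peaks found in the knockout, the genome-wide value lay below the interval. That interval treats the 25 peaks as independent, although 11 of them lay in 1 block of the Kcnq1ot1 and Cdkn1c window and 5 in the main Igf2-side block. It is therefore too narrow. The genome-wide share was also not matched for score, and stronger regions were kept more often (below). For the other comparisons the genome-wide value lay inside the interval.

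Counted as merged regions, 28 Ezh2 regions touched the windows, and 7 of them were called in libraries 0 and 1 alike. The knockout list held 6 of these 7 (85.7%, with an exact binomial 95% interval of 42.1 to 99.6), against 62.6% of all 2642 such regions. The region missing from the knockout list was the weakest of the 7 by library 0 score, chr7:150624170-150624794 in the Kcnq1ot1 and Cdkn1c window, with scores of 50.4 and 68.23 in libraries 0 and 1. Over the genome, stronger regions were kept more often. With all such regions ranked by library 0 score into 10 equal bins, the missing region fell in bin 2, where 29.9% were kept. The kept regions fell in bins 3, 7, 8, 9 and 10 (2 regions in bin 10), where the shares were 37.5%, 81.1%, 89.4%, 95.5% and 99.6%. The count rests on which wild-type libraries are required. With library 1 alone 11 of 24 regions were kept (45.8%, against 18.8% over the genome), and with library 0 alone 7 of 10 (70.0%, against 46.9%). There is 1 knockout library, so no test between the genotypes was made.

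In the 6 kept regions the knockout peaks covered about as much as those of library 0 and less than those of library 1. The ratio of covered length, knockout to library 0, ran from 0.732 at the Cdkn1c-end region chr7:150643709-150647112 to 1.08 at chr7:150291706-150294606, around a genome-wide median of 0.796 over 1653 kept regions. The ratio of knockout to library 1 ran from 0.153 to 0.696 (median 0.343). That of library 0 to library 1, both wild type, ran from 0.142 to 0.679 (median 0.464). The spread between the wild-type libraries was thus as large as that between the knockout and library 1. The highest knockout to library 1 ratio belonged to the main Igf2-side region, where peaks covered 3775 bp in the knockout, against 3682 bp in library 0 and 5423 bp in library 1.

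**Figure D3:**
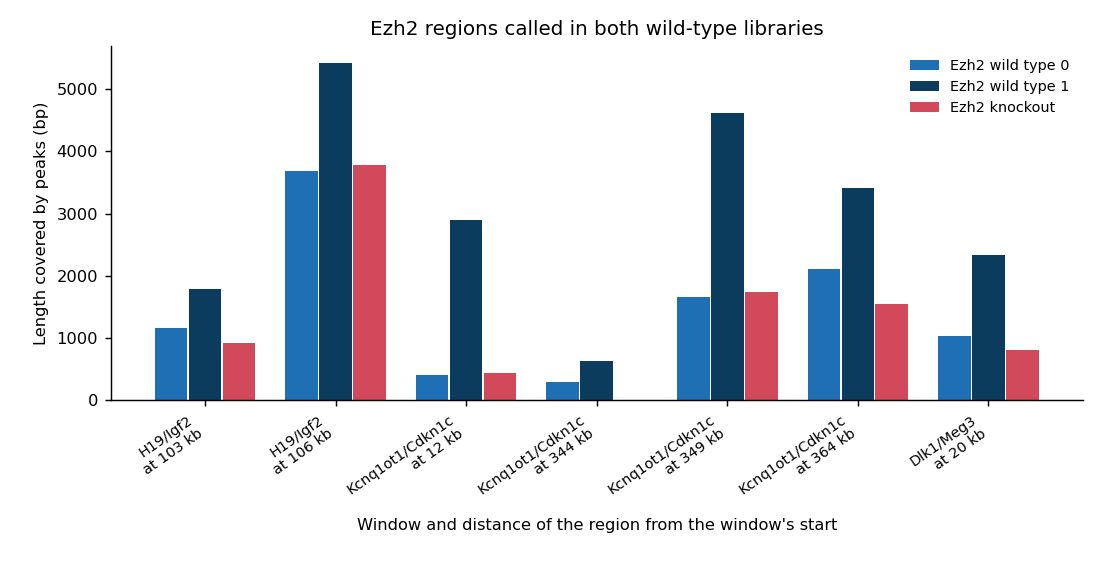
Length covered by peaks (bp) in each of the 7 Ezh2 regions that both wild-type libraries called, by list; each bar is 1 library. Knockout bars lie near those of library 0, library 1 bars are the tallest throughout, and the region at 344 kb in the Kcnq1ot1 and Cdkn1c window has no knockout bar.

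G9a peaks were more evenly spread between windows and flanks than Ezh2 peaks. The G9a lists are far longer and start at lower scores, and only G9a chromatin was also fixed with the crosslinker DSG. The contrast with Ezh2 is therefore not like for like. Over the 5 windows the wild-type list had 36.5 peaks per Mb against 26.9 in the flanks, a ratio of 1.36 (95% interval 0.922 to 1.94). The rescue list had 46.9 against 24.9 per Mb, a ratio of 1.89 (1.34 to 2.61). The whole lists averaged 25.4 and 31.5 per Mb, so the wild-type flanks lay slightly above their list and the rescue flanks below theirs. Against the rest of the same chromosomes the rescue ratio was 1.51 (1.10 to 2.02), no higher than the wild-type one (1.59). The rescue ratio was 1.45 (1.00 to 2.05) without the Snrpn window. With scores of at least 100 only 3 wild-type peaks and no rescue peak were left in the windows, and the wild-type ratio was 0.973. Other settings moved the wild-type ratio to either side: it was 1.59 (1.11 to 2.21) against the rest of the same chromosomes, 1.65 (1.10 to 2.42) without the Igf2r and Airn window and 1.12 (0.753 to 1.62) without the Snrpn window. The intervals of the 2 lists overlap, and with 1 library each the difference between them was not tested.

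The strongest wild-type G9a peaks lay in the Kcnq1ot1 and Cdkn1c and the Dlk1 and Meg3 windows. In the former, chr7:150304436-150307193 had a score of 303.4 in the wild type (percentile 98.3) and held a rescue peak of 59.12 (percentile 90.1). In the latter, chr12:110769291-110771159 had 232.75 in the wild type (97.2), and its rescue score was 56.7 (89.2). The third wild-type peak in the top 10% of its list, chr7:150560987-150562744 (118.21, percentile 91.6), had no rescue peak. Rescue peaks in the top 10% were 4: the one paired with the strongest wild-type peak, chr7:150420909-150422196 (80.36, not called in the wild type), chr7:150622773-150623857 (70.18, over a wild-type peak of 53.59) and chr12:110761366-110762739 (81.97). The last covered 2 wild-type peaks of lower rank, the higher with a score of 28.01 (percentile 40.3). The rest of the G9a peaks in the windows, 32 of the wild-type list and 41 of the rescue list, reached up to percentiles 80.5 and 89.2, and the medians over all window peaks were at percentiles 48.8 and 40.4 of these lists.

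**Figure D4:**
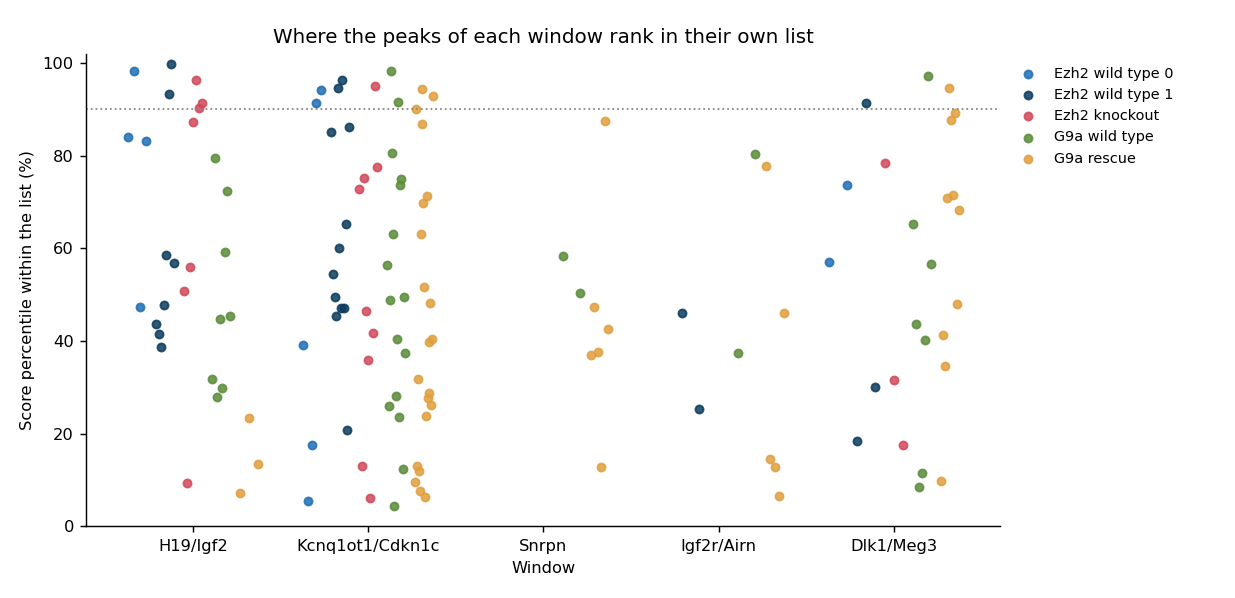
Score percentile of every window peak within its own list, by window and list, with the top 10% above the dotted line; each point is 1 peak. Ezh2 points above the line fall in 3 windows and G9a points above it in 2, the Kcnq1ot1 and Cdkn1c and the Dlk1 and Meg3 windows.

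Rescue and wild-type G9a shared about as many peaks here as elsewhere. A rescue peak overlapped 11 of the 35 wild-type peaks (31.4%; exact binomial 95% interval 16.9 to 49.3), against 31.9% over the genome. Of the 45 rescue peaks, 10 were found in the wild type (22.2%; 11.2 to 37.1), against 27.2%. Merged, the peaks formed 69 regions, of which 10 held both lists, 24 the wild type alone and 35 the rescue alone. The genome-wide shares of merged regions were not computed, so only the shares of peaks have a background here. The window of H19 and Igf2 had 8 wild-type and 3 rescue peaks, or 61.5 and 23.1 per Mb. The best of the wild-type peaks, chr7:149766854-149767874 on the H19 side (62.14, percentile 79.4), was not called in the rescue. The only region of that window shared by both lists, chr7:149798940-149800483, had scores of 49.75 and 22.34.

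The Kcnq1ot1 and Cdkn1c window had 40.0 wild-type and 52.5 rescue G9a peaks per Mb, against 35.3 and 26.2 in its flanks. The ratios were 1.13 (0.613 to 1.98) in the wild type and 2.00 (1.14 to 3.40) in the rescue. The middle of this window held a stretch of 135 kb between neighbouring wild-type G9a peaks, from 150342290 to 150476927, in which the rescue had 9 peaks. Among these were 3 neighbours between 150420909 and 150426637 with scores of 80.36, 50.76 and 33.71. The stretch was chosen after its values were seen, as the widest gap between wild-type peaks, so its lack of wild-type peaks was fixed in advance. Over the genome only 27.2% of rescue peaks were found in the wild type. The Dlk1 and Meg3 window had 7 wild-type and 10 rescue peaks. Its ratios to the flanks were 1.23 (0.478 to 2.67) and 1.60 (0.740 to 3.11), and both intervals included 1. Grouping G9a peaks up to 10 kb apart, 3 wild-type and 5 rescue peaks fell in a block from 110761317 to 110777310, where no Ezh2 peak was called.

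At Snrpn the rescue list held 2 of the 2 wild-type G9a peaks, against 31.9% over the genome. Of the 6 rescue peaks there, 2 were found in the wild type, against 27.2%. These counts are too small to set apart from the genome-wide shares. Both wild-type peaks, with scores of 36.2 and 31.9, had a rescue peak over them, with 24.27 and 52.54. The rescue had 4 further peaks with no wild-type peak over them, with scores of 21.17 to 26.26. The flanks of this window held 2.00 wild-type and 3.00 rescue G9a peaks per Mb, far below the genome densities of the lists (25.4 and 31.5). The window itself held 18.2 and 54.5, so the wild type was below its genome density here too. The wild-type ratio was 9.09 (0.822 to 63.4), on 2 peaks, and the rescue ratio was 18.2 (4.86 to 68.0), on 6. In the Igf2r and Airn window the wild type had 12.5 and the rescue 31.2 G9a peaks per Mb, against 33.0 and 30.0 in the flanks. The shared region there, chr17:12962524-12962929, was weak in both lists, with scores of 27.15 and 20.53. The highest peak there was chr17:12997486-12998224 in the wild type (64.54, percentile 80.4) and chr17:12930676-12931141 in the rescue (38.83, percentile 77.7), each called in its own list alone.

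Few Ezh2 and G9a peaks overlapped in these windows, and the genome-wide share lay inside the interval of each count. Among the 7 Ezh2 regions with peaks in libraries 0 and 1, 1 held a wild-type G9a peak (14.3%), against 16.0% genome-wide. Another held a rescue G9a peak (14.3%), against 20.0%. The exact binomial 95% interval of both shares, 0.361 to 57.9, holds these backgrounds. The former was chr7:150291706-150294606 in the Kcnq1ot1 and Cdkn1c window, with a G9a peak of score 34.96. The latter was the main Igf2-side region, with a rescue peak of score 21.26 (percentile 13.5). Of all G9a peaks in the windows, 3 of 35 wild-type peaks overlapped an Ezh2 peak of any list (8.57%; exact binomial 95% interval 1.80 to 23.1), against 2.71% over the genome. The rescue count was 1 of 45, against 2.53%. The other wild-type overlaps were with a library 1 Ezh2 region at chr7:150650570-150653031 (G9a score 21.71), also called in the knockout, and with a library 1 peak at chr12:110687707-110688114 (41.51).

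Adjacent calls were seen in places, and the close pairs named here are examples. How often G9a peaks lie this close to an Ezh2 region over the genome was not computed, so these distances have no background. On the H19 side the wild-type G9a peak chr7:149766854-149767874 began within 8 bp of the end of the Ezh2 region chr7:149765718-149766845, called in library 1 and the knockout. In the Kcnq1ot1 and Cdkn1c window the shared G9a region chr7:150622437-150623877 ended 292 bp before the first Ezh2 region of the Cdkn1c-end block, the one missing from the knockout. In the Dlk1 and Meg3 window the strongest G9a peak lay 76666 bp from the Ezh2 region that libraries 0 and 1 share. These distances are between called peak edges, whose placement differs between lists with the width of the calls.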

How the data were processed

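Chromatin was fixed for 10 min in 1% formaldehyde, per the labels' protocols, after 45 min in 2 mM of the crosslinker DSG for G9a only. The submitters' processing notes name Bowtie 0.12.7, MACS 1.4 and mm9; no threshold for calling peaks is stated there. The wild-type inputs were joined into the control, by the design text. The 3 inputs were not analysed here. The deposited score of each peak was made by the authors' peak caller, and served here only for ranks and minimum scores inside its own list. The knockout Ezh2 library was assigned by its title, against a source name that gives only the cell line.

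Windows were read from their stated mm9 positions; coordinates are 1-based. Peaks were assigned by any overlap with a window, and flanks of 1 Mb left out all 5 windows. Overlapping Ezh2 peaks of the 3 lists were merged into regions. A percentile is the share of a list's peaks with that score or a lower one. Every Ezh2 region was named, and of the G9a peaks the highest of each list in each window, those in the top 10% of a list and those overlapping Ezh2. Intervals are exact (Clopper-Pearson, 95%). Whether Ezh2 libraries 0 and 1 were separate cultures is not stated. The members and lists were chosen with earlier results of these data known. Alternatives changed the flank, score minimum, overlap, merging, windows and libraries. Python 3.11.15, pandas 2.3.3, scipy 1.17.1 and GenomeInfoDb 1.38.1 (chromosome lengths) were used, and the procedures were tested on simulated data. No mm9 annotation was used.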

Additional observations from a re-analysis of the deposited data

How the results depend on the processing

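Of 58 alternatives to the window to flank densities, 55 lay inside the interval of the reported value. Without the Dlk1 and Meg3 window the Ezh2 ratio of library 0 was 18.0, and with scores of at least 100 the knockout ratio was 10.0. That minimum left no rescue G9a peak in the windows (ratio 0, from 1.89). It also gave 100% of Ezh2 regions kept in the knockout (5 of 5), 0% of 3 wild-type G9a peaks with a rescue peak and 0% of 5 Ezh2 regions with a G9a peak. Fewer peaks entered each, and the genome-wide shares at this minimum were not computed, so these counts have no background. The top 10% of the rescue list began at a score of 58.95, well under the minimum. Without Ezh2 library 0 or library 1, the shares were 45.8% to 70.0% of regions kept and 0% to 12.5% of regions with a G9a peak. Over all alternatives the ratios ranged from 4.48 to 18.0, 4.15 to 7.66 and 3.79 to 10.0 for Ezh2 in library 0, library 1 and the knockout, so Ezh2 stayed denser in the windows in each of them. The G9a ratios ranged from 0.973 to 1.65 in the wild type and from 0 to 2.15 in the rescue. Why the values moved under the other settings was not tested. Depth is unknown, so a site without a peak was not called at this depth, which does not show absence. No paired analysis was possible because the groups share fewer than 2 replicate numbers.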
